A study of Danio rerio with 12 samples.

Results

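Most of the genes described here encode proteins that build, recycle and cap actin filaments and that form microtubules. They were taken by symbol: every probe set assigned to a single gene whose symbol begins with arpc, actr, tuba, tubb, tubg, tmsb, pfn, cfl (leaving out cfl1l), capz, capg or wdr1, with the probe set of the highest mean where a gene had several. This gave 45 genes, measured by 58 probe sets, of 8793 genes and 15502 probe sets besides controls on the array. A further check of the symbols showed that 6 of the 45 (actr6, actr8, cflara, wdr12, wdr13 and wdr18) share only their letters with the cytoskeletal families. Actr6 and actr8 belong to chromatin remodelling complexes, cflara to the regulation of cell death, and wdr12 and wdr18 to ribosome assembly, so they are given as a group of their own. The other 39 are 8 subunits of the Arp2/3 complex, 2 actin-related proteins of dynactin, 8 thymosins and profilins, wdr1, 4 capping proteins, 8 alpha tubulins, 5 beta tubulins, and 3 genes of gamma tubulin and its complex. No probe set of a cofilin and none of arpc2 is among the members, and neither gene is analysed here.

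Actin filaments grow from monomers at their barbed ends. The Arp2/3 complex starts new filaments as branches on old ones, profilin brings monomers to growing ends, beta thymosins hold monomers in reserve, capping proteins close barbed ends, and wdr1 (Aip1) works with cofilin to take filaments apart. Microtubules are polymers of alpha and beta tubulin dimers and start from a ring of gamma tubulin. In an injured zebrafish heart, leukocytes and epicardial cells move into the wound and cardiomyocytes loosen their sarcomeres, events that call on both filament systems.

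The samples were the apex of the ventricle of adult AB zebrafish, which holds the amputation plane and the regenerating tissue. TCDD (2,3,7,8-tetrachlorodibenzo-p-dioxin, a ligand of the aryl hydrocarbon receptor) was injected into the body cavity at 70 ng/g, 1 day before the ventricle was amputated. The 6 groups were TCDD and Control, each without amputation (0 hpa), at 6 hours (6 hpa) and at 7 days (7 dpa) after it, with 2 arrays a group and 10 hearts pooled on each array. The protocol names a vehicle injection for the Control fish, whose treatment label reads none. The 2 pools of a group carry no statement of separate batches of fish, so p-values measure only the spread between these pools. Hearts that were not operated served as 0 hpa, and the labels do not state their time since injection, so an amputation difference also holds the operation and any difference in that time.

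Each value below is the log2 of the deposited intensity of 1 probe set on 1 array, and each difference is on that log2 scale, ± its standard error from limma. A gene was called, and is said to have risen or fallen, at a Benjamini-Hochberg adjusted p under 0.05 over all 15502 probe sets. The cardiomyocyte markers were high on all 12 arrays, with a summed intensity over 8 genes of 19162 to 34418. One array stood apart. TCDD 6 hpa replicate 1 correlated at 0.901 with its replicate, against 0.958 to 0.979 in the other groups, and held the lowest value of 23 of the 45 genes. Its acta1 control probes differed by 3.35 between the 3′ and the 5′ end of the transcript, against -0.09 to 2.07 on the other arrays, a measure of RNA integrity. The same measure on the GAPDH control probes did not set it apart, with 1.12 against 0.523 to 1.96. Results that rest on it are given with and without it.

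At 7 dpa the genes of this group were mostly higher than in unamputated hearts. In the mean of both treatments 15 of the 45 rose and 0 fell by limma (25 had an unadjusted p under 0.05), while 7.48% of all probe sets were called, 4.73% as rises. An unadjusted p under 0.05 was held by 19.9% of all probe sets. The rises were in tmsb1, capgb, arpc1b, arpc5a, arpc5b, tubb5, tubb2b, tuba8l3, pfn2b, tmsb2, arpc4, actr3, capza1a, actr2a and actr1b, all of the 39 cytoskeletal genes. The last 7 of these lie outside the rule for naming genes and were named after their values were seen. The median of the 45 differences was 0.39, against -0.02 for all probe sets, and 36 of the 45 were above 0. Each of the 15 had both 7 dpa arrays above both 0 hpa arrays in the TCDD hearts and again in the Control hearts. This order was held by 20.9% of all probe sets in TCDD hearts and by 18.2% in Control hearts. The 15 were called on these same arrays, which favours such an order, so it is no separate support. In such pooled tissue, more cells of a type and more RNA per cell cannot be told apart.

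Members differed in signal, and brighter probe sets were called more often. Among the 24 members whose mean lay above the 75th percentile of all probe sets, 11 rose, against 7.87% of all probe sets above it. Of the 21 members at or under it 4 rose, against 3.69% of all such probe sets.

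**Figure D1:**
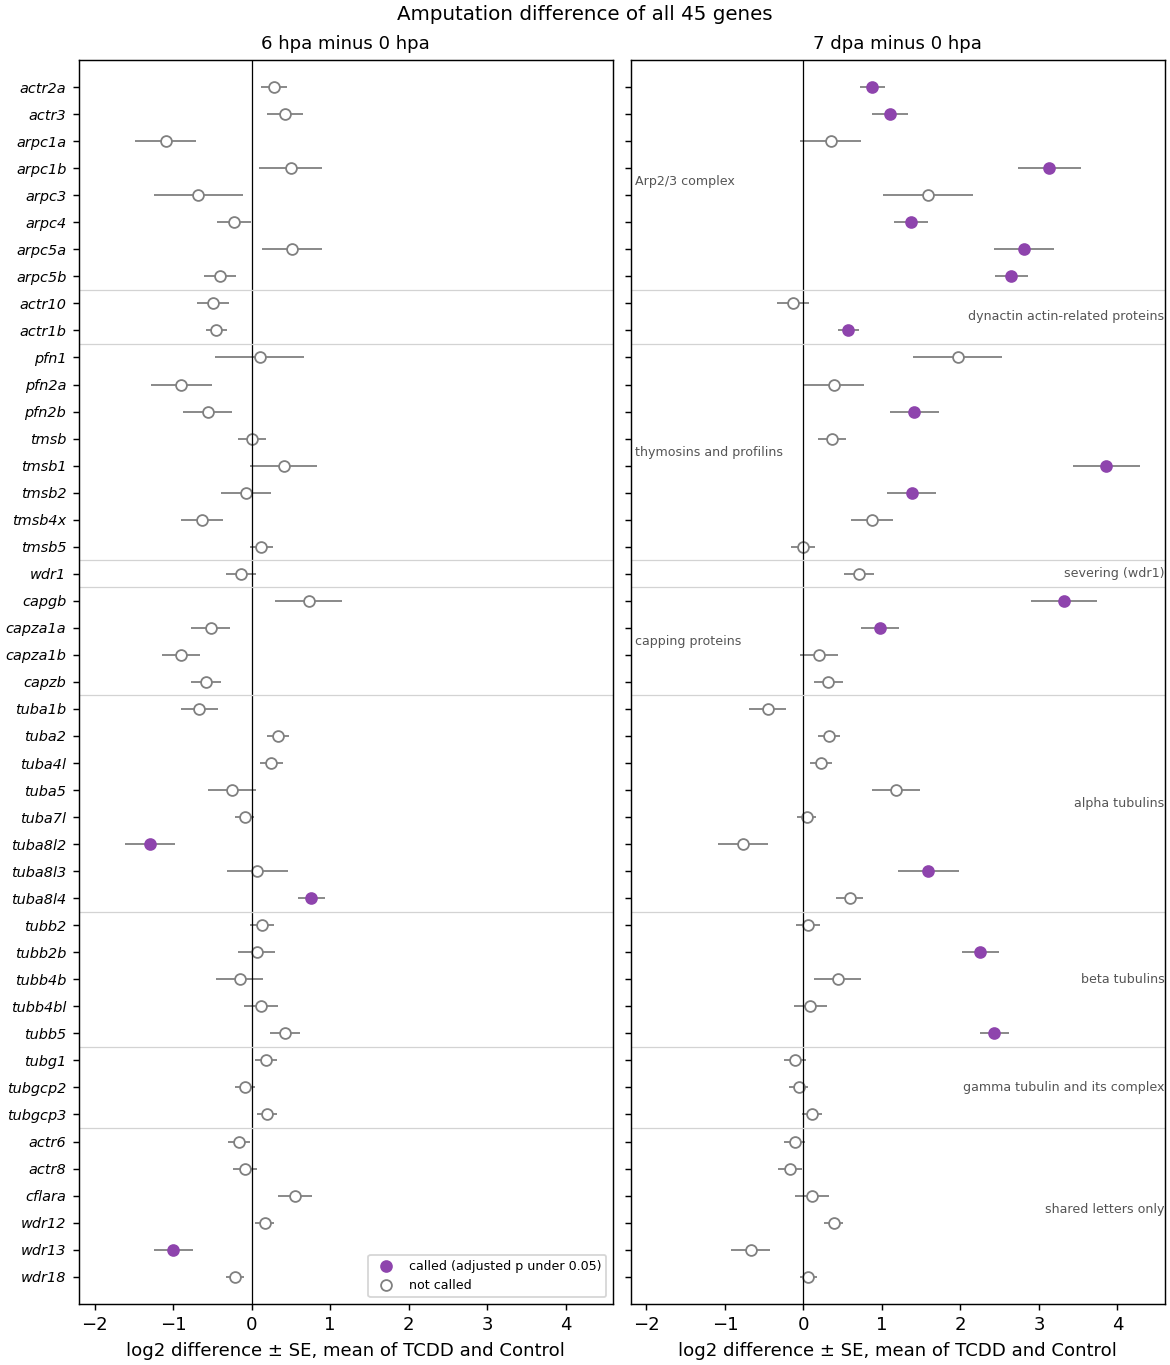
Log2 difference (x axis, ± SE) of each of the 45 genes (y axis, grouped by role) at 6 hpa (left) and 7 dpa (right) against 0 hpa, as the mean of the TCDD and the Control difference, 4 arrays against 4. Filled points are called genes: 15 lie right of 0 at 7 dpa, and 1 right and 2 left of 0 at 6 hpa.

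Most of the Arp2/3 complex rose. All 8 subunits were above 0 at 7 dpa in the mean of both treatments, with a median of 1.48. Of these 6 rose, against 4.73% of all probe sets. All 8 had both 7 dpa arrays above both 0 hpa arrays in each treatment. This order was held by 20.9% of all probe sets in TCDD hearts and by 18.2% in Control hearts. The 6 were called on these same arrays, which favours such an order, so it is no separate support.

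Arpc5b, 1 of 2 zebrafish genes for the smallest subunit, had closely matching replicates at 7 dpa. In TCDD hearts it read 5.34 and 5.64 at 0 hpa, 4.43 and 5.14 at 6 hpa and 8.02 and 8.02 at 7 dpa. In Control hearts it read 5.50 and 5.17 at 0 hpa, 4.92 and 5.57 at 6 hpa and 8.21 and 7.99 at 7 dpa. The 7 dpa arrays of both treatments lay within a narrow band and above every other array. The rise was 2.53 ± 0.29 in TCDD hearts (adjusted p = 0.00305) and 2.77 ± 0.29 in Control hearts (adjusted p = 0.00258), or 6.27-fold in the mean of both.

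Its paralog arpc5a read 4.67 and 4.85 at 0 hpa, 3.75 and 5.78 at 6 hpa and 8.17 and 7.66 at 7 dpa in TCDD hearts. The Control arrays gave 5.06 and 5.38 at 0 hpa, 5.97 and 6.49 at 6 hpa and 7.82 and 7.55 at 7 dpa. The 7 dpa values again exceeded all others, and TCDD 6 hpa replicate 1 was the lowest array. Arpc5a rose by 3.16 ± 0.54 in TCDD hearts (adjusted p = 0.0199) and by 2.81 ± 0.38 in the mean (adjusted p = 0.00337). A second probe set of arpc5a gave a smaller rise in the mean, 1.25 ± 0.24 (adjusted p = 0.017).

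Arpc1b encodes the subunit whose human counterpart prevails in blood cells. In TCDD hearts its values were 4.27 and 5.60 at 0 hpa, 4.14 and 5.61 at 6 hpa and 7.63 and 7.39 at 7 dpa. In Control hearts they were 5.08 and 4.84 at 0 hpa, 5.73 and 6.30 at 6 hpa and 9.15 and 8.14 at 7 dpa. Both 7 dpa Control arrays exceeded both 7 dpa TCDD arrays, and all 4 exceeded the 0 hpa and 6 hpa arrays. Arpc1b rose by 3.68 ± 0.57 in Control hearts (adjusted p = 0.0148). In TCDD hearts the difference was 2.58 ± 0.57 (adjusted p = 0.056), and in the mean of both treatments arpc1b rose 8.75-fold, by 3.13 ± 0.40 (adjusted p = 0.0025).

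Arpc1a, the paralog of arpc1b, is its neighbour in the current zebrafish assembly (GRCz12tu), with 0 protein-coding genes between them. In TCDD hearts arpc1a read 8.47 and 8.69 at 0 hpa, 5.81 and 7.97 at 6 hpa and 9.11 and 9.0 at 7 dpa. The Control arrays gave 8.49 and 8.61 at 0 hpa, 7.77 and 8.33 at 6 hpa and 8.67 and 8.86 at 7 dpa. These values lay between 7.77 and 9.11 on all arrays other than TCDD 6 hpa replicate 1. The 7 dpa difference of arpc1a was 0.35 ± 0.39 in the mean (adjusted p = 0.762). The contrast between the paralogs was not tested.

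The differences of the remaining subunits at 7 dpa lay between that of arpc1a and those of arpc5a, arpc5b and arpc1b. Arpc4, part of the structural core of the complex, rose by 1.37 ± 0.22 (adjusted p = 0.00658) in the mean. The actin-related subunits, which form the first units of the new branch, were actr3 with a rise of 1.11 ± 0.23 (adjusted p = 0.023) and actr2a with a rise of 0.88 ± 0.16 (adjusted p = 0.0145). A second actr2a probe set gave 0.24 ± 0.14 and was not called (adjusted p = 0.408). Arpc3 had a difference of 1.59 ± 0.57 that missed the threshold (adjusted p = 0.15). Without either of the TCDD 6 hpa arrays it was called with the same difference (adjusted p = 0.00506), since the spread is shared by all groups and arpc3 read 4.59 and 7.68 on the TCDD 6 hpa arrays.

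**Figure D2:**
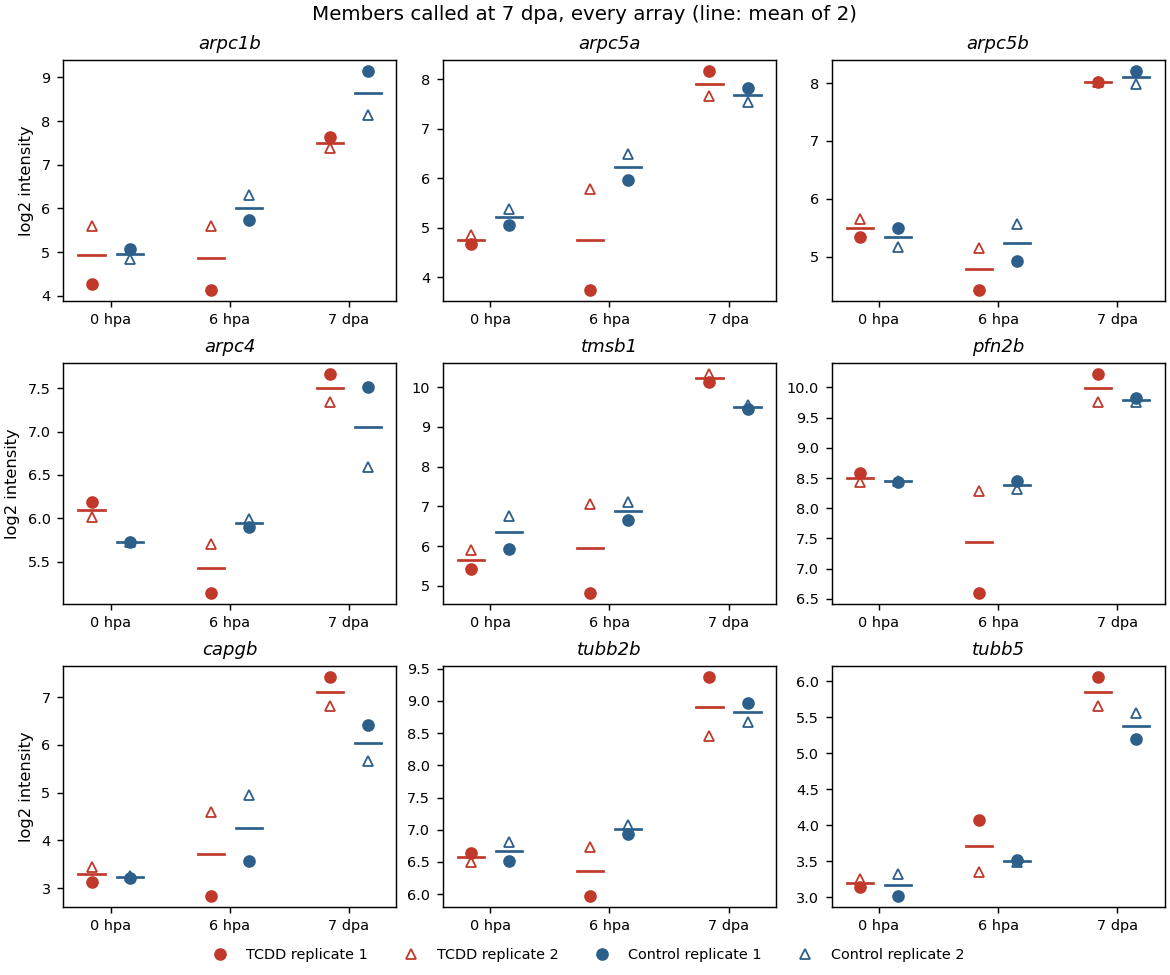
Log2 intensity (y axis) of 9 called genes on every array by time (x axis), with TCDD (red) left of Control (blue), circles for replicate 1, triangles for replicate 2 and a line at the mean of 2 arrays. In each panel the 7 dpa arrays of both treatments lie above the 0 hpa arrays of both.

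Among the monomer-binding proteins, tmsb1, a beta thymosin, had the largest 7 dpa difference of the 45 genes in TCDD hearts and in the mean of both treatments. In Control hearts that of arpc1b was larger. The TCDD arrays gave 5.44 and 5.89 at 0 hpa, 4.83 and 7.07 at 6 hpa and 10.12 and 10.33 at 7 dpa. Its Control values were 5.94 and 6.77 at 0 hpa, 6.66 and 7.11 at 6 hpa and 9.46 and 9.56 at 7 dpa. All 4 arrays at 7 dpa exceeded all 8 others, and the TCDD pair exceeded the Control pair. Tmsb1 rose by 4.56 ± 0.61 in TCDD hearts (adjusted p = 0.00581) and by 3.16 ± 0.61 in Control hearts (adjusted p = 0.0363), or 14.5-fold in the mean. With each array centred on its median the Control rise missed the threshold (adjusted p = 0.0776). It was called in 2 of the 12 fits that leave out 1 array, those without a TCDD 6 hpa array, and its adjusted p ran between 0.00183 and 0.247.

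Tmsb4x, the gene of thymosin beta 4, which has been studied as a repair factor in mouse hearts, was not called. Its values in TCDD hearts were 11.30 and 11.43 at 0 hpa, 9.84 and 11.05 at 6 hpa and 12.42 and 12.18 at 7 dpa. Control hearts gave 11.52 and 11.43 at 0 hpa, 10.71 and 11.55 at 6 hpa and 12.37 and 12.20 at 7 dpa. All 7 dpa arrays lay above all 0 hpa arrays. The difference was 0.87 ± 0.27 (adjusted p = 0.0942), and it was called without either TCDD 6 hpa array (adjusted p = 0.0191 in both fits).

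Tmsb2 rose by 1.38 ± 0.32 in the mean (adjusted p = 0.033). Its 7 dpa arrays read 3.82 and 4.0 in TCDD hearts and 3.73 and 5.50 in Control hearts, against 2.88 and 2.71 in TCDD hearts and 2.97 and 2.99 in Control hearts at 0 hpa. Control 7 dpa replicate 2 was far above the other 3. The probe sets of tmsb and tmsb5 lay under the median of all probe sets and were not called. The current annotation (GRCz12tu) lists tmsb5 as a long noncoding RNA, not as a protein-coding gene.

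Of the profilins, pfn2b rose by 1.41 ± 0.31 (adjusted p = 0.028). It read 8.58 and 8.44 at 0 hpa, 6.60 and 8.29 at 6 hpa and 10.22 and 9.76 at 7 dpa in TCDD hearts. Control arrays read 8.43 and 8.46 at 0 hpa, 8.45 and 8.32 at 6 hpa and 9.82 and 9.75 at 7 dpa. Amputated and unamputated hearts did not overlap at 7 dpa. Pfn1 had a larger difference, 1.96 ± 0.57, with a wider spread (adjusted p = 0.0748), and was called without either TCDD 6 hpa array (adjusted p = 0.00749 in both fits). Pfn2a differed by 0.38 ± 0.39 (adjusted p = 0.729).

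Capping and severing genes were also above 0 at 7 dpa. Capgb belongs to the family of human CAPG, the macrophage-capping protein, which closes barbed ends. In TCDD hearts it read 3.13 and 3.45 at 0 hpa, 2.84 and 4.59 at 6 hpa and 7.43 and 6.81 at 7 dpa. In Control hearts it read 3.20 and 3.25 at 0 hpa, 3.56 and 4.95 at 6 hpa and 6.41 and 5.67 at 7 dpa. Its 4 values at 0 hpa were close to the median of all probe sets (3.38) and those at 7 dpa were above all others. Capgb rose by 3.83 ± 0.60 in TCDD hearts (adjusted p = 0.0138) and 9.99-fold in the mean (adjusted p = 0.0024), with a Control difference of 2.82 ± 0.60 (adjusted p = 0.0532).

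The heterodimeric capping protein had smaller differences. Capza1a rose by 0.98 ± 0.24 (adjusted p = 0.0438), capza1b differed by 0.19 ± 0.24 (adjusted p = 0.794) and their partner capzb by 0.32 ± 0.19 (adjusted p = 0.435). The call of capza1a was lost with the replicate number as a block (adjusted p = 0.0572), and it held in 2 of the 12 fits that leave out 1 array, those without a TCDD 6 hpa array (adjusted p between 0.00715 and 0.155). Wdr1, the partner of cofilin in filament disassembly, read 5.26 and 4.92 at 0 hpa, 4.74 and 5.30 at 6 hpa and 6.02 and 6.47 at 7 dpa in TCDD hearts. The Control arrays gave 5.82 and 5.59 at 0 hpa, 5.26 and 5.74 at 6 hpa and 5.84 and 6.09 at 7 dpa. The 7 dpa and 0 hpa arrays did not overlap within either treatment, and the mean difference of 0.71 ± 0.19 missed the threshold (adjusted p = 0.0576). It was called without either TCDD 6 hpa array (adjusted p = 0.0311 in both fits).

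The tubulin genes differed from one another. Of 8 alpha and 5 beta tubulins 3 rose at 7 dpa, against 4.73% of all probe sets. Of the 3 genes of gamma tubulin and its complex 0 were called (0 also had an unadjusted p under 0.05). With 7.48% of all probe sets called, 0 of 3 is near the background. The medians were 0.27 for alpha tubulins, 0.44 for beta tubulins and -0.06 for the gamma tubulin group.

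Tubb5, a beta tubulin, read 3.14 and 3.25 at 0 hpa, 4.08 and 3.36 at 6 hpa and 6.06 and 5.65 at 7 dpa in TCDD hearts. Its Control values were 3.02 and 3.33 at 0 hpa, 3.52 and 3.49 at 6 hpa and 5.19 and 5.56 at 7 dpa. At 0 hpa all 4 values were below the median of all probe sets, and at 7 dpa all 4 were above the 75th percentile (4.66). Tubb5 rose by 2.66 ± 0.26 in TCDD hearts (adjusted p = 0.00148) and by 2.20 ± 0.26 in Control hearts (adjusted p = 0.00466). A second tubb5 probe set had a difference of 0.02 ± 0.38 (adjusted p = 0.991).

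Tubb2b read 6.64 and 6.50 at 0 hpa, 5.98 and 6.73 at 6 hpa and 9.37 and 8.45 at 7 dpa in TCDD hearts. Its Control values were 6.52 and 6.81 at 0 hpa, 6.93 and 7.08 at 6 hpa and 8.97 and 8.68 at 7 dpa. The 7 dpa arrays did not overlap with any other array. Tubb2b rose by 2.34 ± 0.33 in TCDD hearts (adjusted p = 0.00817) and by 2.16 ± 0.33 in Control hearts (adjusted p = 0.0145), and its second probe set, of a design that can also bind related transcripts, rose by 1.74 ± 0.15 in the mean. Tubulin genes share long stretches of sequence, so a probe set may read more than 1 of them.

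Tubb2b and tubb5 belong to a family that neurons also use. The 5 nerve markers on the array (such as elavl3 and snap25a) had a summed intensity of 34 to 47 at 7 dpa, against 38 to 45 at 0 hpa. At 7 dpa 0 of 5 were called by limma (0 had an unadjusted p under 0.05). Over all probe sets 7.48% were called and 19.9% had an unadjusted p under 0.05, so 0 of 5 is near the background. The signal of the nerve markers was low, with snap25a at 2.54 to 2.82 and elavl3 at 3.00 to 3.66 at 7 dpa. The median of all probe sets was 3.38. With signal this low, these counts cannot decide whether nerve tissue changed. The part of nerve in the rises of tubb2b and tubb5 was not tested.

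The alpha tubulin tuba8l3 rose by 1.59 ± 0.39 at 7 dpa (adjusted p = 0.0415). The TCDD arrays gave 6.18 and 5.69 at 0 hpa, 4.65 and 6.49 at 6 hpa and 8.14 and 7.82 at 7 dpa. Control hearts gave 6.23 and 7.09 at 0 hpa, 6.80 and 7.54 at 6 hpa and 7.74 and 7.84 at 7 dpa. The spread between replicates at 0 hpa and 6 hpa was wide, and the 7 dpa arrays lay above all of them. The call held in 2 of the 12 fits that leave out 1 array, those without a TCDD 6 hpa array, and its adjusted p ran between 0.00476 and 0.144. Tuba5 differed by 1.18 ± 0.31 just above the threshold (adjusted p = 0.053), and was called without either TCDD 6 hpa array (adjusted p = 0.00422 in both fits).

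The other tubulins were not called at 7 dpa. Tuba1b differed by -0.46 ± 0.24 at 7 dpa (adjusted p = 0.349) and tubb4b, read by a probe set of the design that can bind related transcripts, by 0.44 ± 0.30 (adjusted p = 0.519). Tuba2, tuba4l, tuba7l, tubb2 and tubb4bl had differences of 0.04 to 0.33, and none was called. Tubg1, which nucleates microtubules, differed by -0.11 ± 0.14 (adjusted p = 0.801), and its complex partners tubgcp3 and tubgcp2 by 0.11 ± 0.13 (adjusted p = 0.759) and -0.06 ± 0.13 (adjusted p = 0.889).

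**Figure D3:**
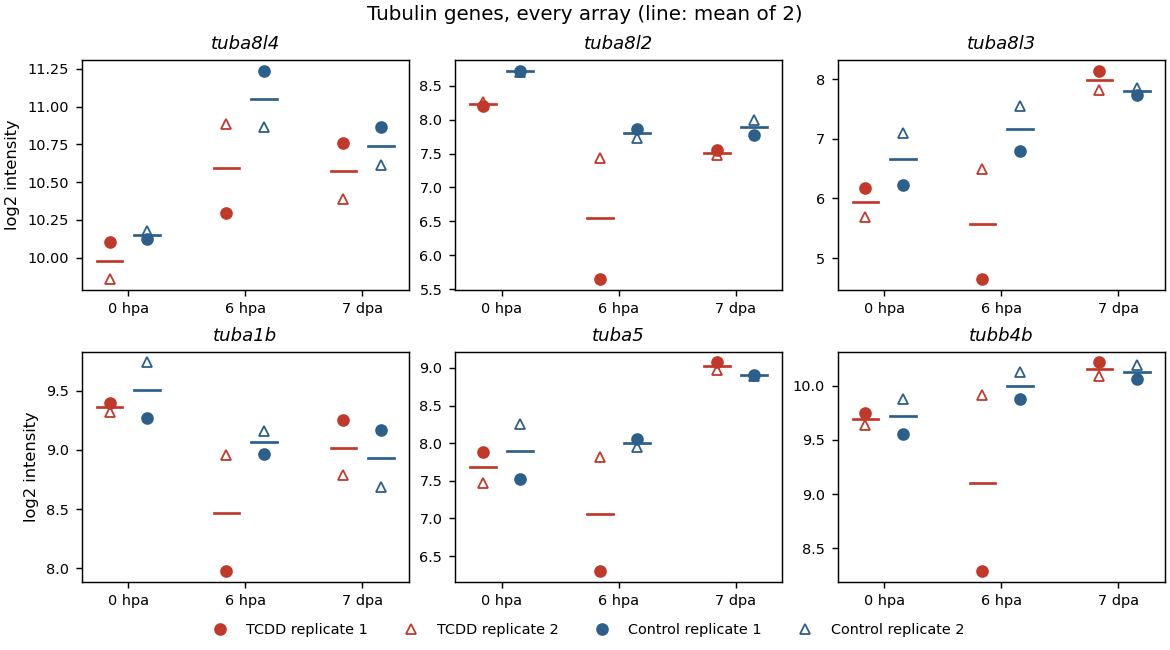
Log2 intensity (y axis) of 5 alpha tubulins and tubb4b on every array by time (x axis), with TCDD (red) left of Control (blue), circles for replicate 1, triangles for replicate 2 and a line at the mean of 2 arrays. Tuba8l3 and tuba5 are highest at 7 dpa in both treatments, tuba8l2 is highest at 0 hpa, and TCDD 6 hpa replicate 1 is the lowest array in 5 of the 6 panels.

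The dynactin gene actr1b, whose product forms the short filament of that motor adapter, rose by 0.57 ± 0.13 at 7 dpa (adjusted p = 0.0359). Its 7 dpa arrays read 7.75 and 7.44 in TCDD hearts and 7.23 and 7.17 in Control hearts, against 6.93 and 6.86 in TCDD hearts and 6.62 and 6.91 in Control hearts at 0 hpa. Actr10, at the end of the same filament, differed by -0.14 ± 0.20 (adjusted p = 0.842). The 6 genes that share only letters with these families ranged between -0.67 for wdr13 and 0.39 for wdr12 at 7 dpa, and 0 of 6 were called by limma (2 had an unadjusted p under 0.05). With 7.48% of all probe sets called, 0 of 6 is near the background. An unadjusted p under 0.05 was held by 19.9% of all probe sets.

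At 6 hours the group had no common direction. In the mean of both treatments 1 member rose and 2 fell, 3 of 45, against 7.41% of all probe sets, so that the share of members called was near the background. Tuba8l4, an alpha tubulin, rose by 0.76 ± 0.17 (adjusted p = 0.0326). Its values in TCDD hearts were 10.10 and 9.86 at 0 hpa, 10.30 and 10.89 at 6 hpa and 10.76 and 10.39 at 7 dpa. In Control hearts it read 10.12 and 10.18 at 0 hpa, 11.24 and 10.87 at 6 hpa and 10.86 and 10.61 at 7 dpa. The 6 hpa arrays exceeded all 0 hpa arrays. At 7 dpa its difference was 0.59 ± 0.17 (adjusted p = 0.0774).

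Tuba8l2 moved the other way at 6 hpa, where it fell by 1.30 ± 0.32 (adjusted p = 0.0424). It read 8.20 and 8.26 at 0 hpa, 5.65 and 7.44 at 6 hpa and 7.55 and 7.48 at 7 dpa in TCDD hearts. The Control arrays gave 8.73 and 8.70 at 0 hpa, 7.86 and 7.73 at 6 hpa and 7.78 and 8.0 at 7 dpa. Every amputated array was below every unamputated one, and TCDD 6 hpa replicate 1 was far below the rest. Without that array the 6 hpa difference was -0.85 (adjusted p = 0.00688), and the 7 dpa difference of -0.77 was called as a fall without either TCDD 6 hpa array (adjusted p = 0.00294). Wdr13 fell by 1.0 ± 0.25 at 6 hpa (adjusted p = 0.0437), and without that array the difference was -0.87 and not called (adjusted p = 0.099). Both other wdr13 probe sets differed by little at 6 hpa, -0.05 and -0.06 (adjusted p = 0.871 and 0.869).

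The 3 calls at 6 hpa depended on the scaling and on single arrays. With each array centred on its median 0 members were called, and leaving out 1 array at a time gave 0 to 14 calls: 0 without either Control 0 hpa array, either TCDD 0 hpa array or Control 6 hpa replicate 2, 1 without either TCDD 7 dpa array, and 14 without TCDD 6 hpa replicate 2, against 18% of all probe sets. Without TCDD 6 hpa replicate 1 there were 4 calls, against 7.37% of all probe sets: tuba8l4, arpc5a by 1.01 (adjusted p = 0.0207) and tmsb1 by 0.97 (adjusted p = 0.045) as rises, and tuba8l2 as a fall. Of the 12 fits without 1 array, tuba8l4 was called in 6, wdr13 in 4 and tuba8l2 in 2. Within each treatment 0 members were called at 6 hpa by limma. Of all probe sets 1.88% were called in TCDD hearts and 0.477% in Control hearts. An unadjusted p under 0.05 was held by 15 members (33.3%) in TCDD hearts and by 3 (6.67%) in Control hearts. Over all probe sets these unadjusted shares were 17.2% and 10.2%. The members' median at 6 hpa in the mean of both treatments was -0.08 in the deposited scaling, -0.18 after centring and 0.04 after quantile normalization, so it has no settled sign. Erythrocyte markers moved at this time: 8 of 8 rose in the mean, against 289 of all 15502 probe sets. The summed intensity of these markers at 6 hpa was 20221 and 15718 in TCDD hearts and 19935 and 14435 in Control hearts. At 0 hpa it was 7106 and 6672 in TCDD hearts and 9809 and 8555 in Control hearts. The part of erythrocytes in the 6 hpa values was not tested.

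Within each treatment at 7 dpa fewer members passed than in the mean. In TCDD hearts 6 rose (arpc5a, arpc5b, capgb, tmsb1, tubb2b and tubb5) and 0 fell, against 2.37% of all probe sets called. In Control hearts 5 rose (arpc1b, arpc5b, tmsb1, tubb2b and tubb5) and 0 fell, against 2% of all probe sets. Arpc5b, tmsb1, tubb2b and tubb5 were called in both, tmsb1 in Control hearts with the dependence on single arrays given above. The members' medians were 0.55 in TCDD hearts and 0.26 in Control hearts, and 34 of the 45 were above 0 in both.

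The counts at 7 dpa depended on single arrays. Leaving out 1 array at a time gave 8 to 22 calls in the mean of both treatments, with 8 without Control 0 hpa replicate 1 or TCDD 0 hpa replicate 1 and 9 without TCDD 0 hpa replicate 2 or TCDD 7 dpa replicate 1. The 8 genes arpc1b, arpc4, arpc5a, arpc5b, capgb, tmsb1, tubb2b and tubb5 were called in all 12 of these fits. The calls of actr2a held in 9 of the 12, actr3 in 6, pfn2b and tmsb2 in 4, actr1b in 3, and capza1a and tuba8l3 in 2. Without TCDD 6 hpa replicate 1, and equally without replicate 2, 22 members were called (21 rises and the fall of tuba8l2), against 11.3% of all probe sets. In these fits that group adds nothing to the spread, and the lone TCDD 6 hpa array is assumed to vary like the other groups. The added rises were arpc3, pfn1, tmsb4x, tuba5, tuba8l4 and wdr1. In TCDD hearts the count was 14 without either TCDD 6 hpa array, 2 without TCDD 0 hpa replicate 1 and 3 without TCDD 0 hpa replicate 2. In Control hearts it was 12 without either TCDD 6 hpa array, 1 and 2 without Control 0 hpa replicate 1 or 2, and 3 without Control 7 dpa replicate 1.

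TCDD itself gave no called member. Against Control hearts of the same time 0 of 45 were called at 0 hpa, at 6 hpa and at 7 dpa by limma, with 1, 4 and 2 at an unadjusted p under 0.05. Few probe sets were called in these comparisons at all: 0.0258%, 0.0129% and 0.116%. An unadjusted p under 0.05 was held by 1.45%, 2.72% and 3.97% of all probe sets. The change of the amputation response by TCDD (the interaction) was also called for 0 members at 6 hpa and at 7 dpa by limma, with 1 member each at an unadjusted p under 0.05 and 0.00645% of all probe sets called at each. Such an unadjusted p was held by 1.14% of all probe sets at 6 hpa and 2.01% at 7 dpa.

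The intervals were wide, so these counts do not show that TCDD and Control hearts were alike. At 7 dpa the half-width of the 95% interval had a median of 0.69 over the 45 genes, and the interval lay within 1 of 0 on the log2 scale for 28 of them. Of the 15 genes called at 7 dpa in the mean, 6 had such an interval. Arpc5b had a TCDD minus Control difference of -0.08 at 7 dpa (95% interval -0.74 to 0.58). The largest differences at 7 dpa among the 15 were capgb at 1.08 (-0.28 to 2.43), higher on both TCDD arrays, and arpc1b at -1.14 (-2.42 to 0.15), lower on both. Tmsb1 had the largest change of the 7 dpa response, 1.40 ± 0.86 on the log2 scale, which was not called (adjusted p = 1).

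Among the unadjusted results, wdr1 was lower in TCDD hearts than in Control hearts before amputation, with a difference of -0.61 (-1.22 to -0.01), and its 7 dpa response was larger in TCDD hearts by 0.90 (0.04 to 1.76). The second value holds the same 0 hpa difference and is no separate result. At 7 dpa wdr1 differed by 0.28 between TCDD and Control hearts, with an unadjusted p not under 0.05. All 8 alpha tubulins had a negative TCDD difference at 0 hpa, with a median of -0.24, but 0 had an unadjusted p under 0.05. All 8 were also negative after quantile normalization and after centring. In 6 of them both TCDD arrays lay below both Control arrays, an order held by 14.7% of all probe sets. The 8 genes were read on the same arrays, so they do not count as replicates. None of these passed the adjusted threshold (adjusted p = 1 each).

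At 6 hpa 35 of the 45 differences between TCDD and Control hearts were negative, with a median of -0.46, against 0.03 for all probe sets. Without TCDD 6 hpa replicate 1 the median was -0.09 and 31 were negative. Bright probe sets in general were lower in TCDD hearts at 6 hpa, with a median of -0.30 over those above the 75th percentile, against -0.80 over the 24 members above it. With TCDD 6 hpa replicate 1 as the only TCDD 6 hpa array, 12 members were called as falls against Control hearts, where 4.92% of all probe sets were called. Against TCDD 0 hpa 16 were called (2 rises and 14 falls), with 15.6% of all probe sets. The part of RNA integrity in these values was not tested.

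**Figure D4:**
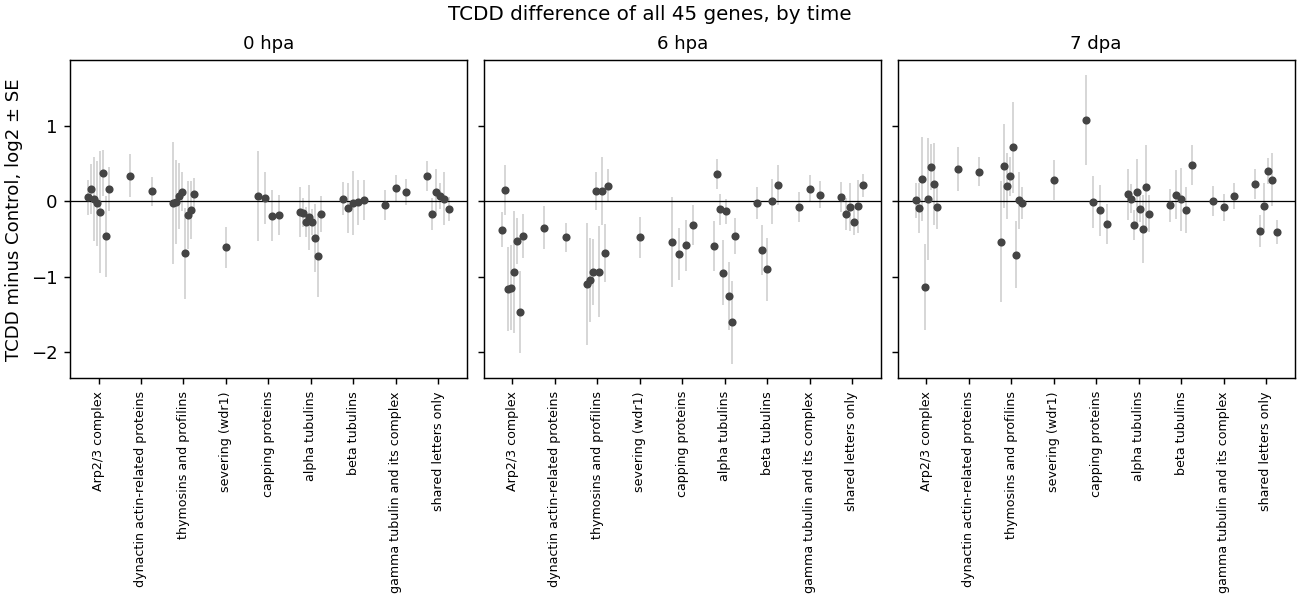
TCDD minus Control difference (y axis, log2 ± SE, 2 arrays against 2) of each of the 45 genes, grouped by role (x axis), at 0 hpa, 6 hpa and 7 dpa. No gene was called at any time, and 35 of the 45 points lie below 0 at 6 hpa, against 25 at 0 hpa and 19 at 7 dpa.

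Markers of several cell types moved with the 7 dpa rises. In the mean of both treatments 9 of 14 leukocyte markers, 8 of 12 epidermis markers and 8 of 9 epicardium and fibroblast markers rose, while 4 of 8 cardiomyocyte markers fell. Among all 15502 probe sets 734 rose and 426 fell. The summed leukocyte intensity at 7 dpa was 3459 and 2606 in TCDD hearts and 9434 and 5404 in Control hearts, against 856 and 1737 in TCDD hearts and 865 and 899 in Control hearts at 0 hpa. The defining marker ptprc (CD45) read 6.75 and 5.89 in TCDD hearts and 8.04 and 6.30 in Control hearts at 7 dpa, against 4.64 and 5.09 in TCDD hearts and 4.55 and 4.33 in Control hearts at 0 hpa. The sum is weighted to bright genes such as cd74a, at 10.06 and 8.46 in TCDD and 11.89 and 11.28 in Control hearts at 7 dpa. Other markers of the list had the opposite order at 7 dpa. Lyz read 6.98 and 7.50 in TCDD hearts and 4.11 and 4.97 in Control hearts. Mpx read 4.20 and 8.11 in TCDD hearts and 2.42 and 2.93 in Control hearts. The part of leukocytes in the rises of arpc1b, capgb or the other members was not tested.

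Epidermis markers differed between the treatments at 7 dpa, where both TCDD arrays lay above both Control arrays in 8 of 12, an order held by 13.3% of all probe sets, and the median difference was 2.66 (0 were called by limma, 8 at an unadjusted p under 0.05). Of all probe sets 0.116% were called and 3.97% had an unadjusted p under 0.05. The summed intensity of the epidermis markers was 9018 and 8222 in TCDD hearts and 3098 and 5878 in Control hearts at 7 dpa, against 1324 to 1949 at 0 hpa in both treatments. The marker epcam read 8.33 and 8.36 in TCDD hearts and 2.55 and 6.93 in Control hearts. On Control 7 dpa replicate 1 the median deviation of the epidermis list from its Control 0 hpa mean was -0.09, while krt4 read 8.79, against 6.96 and 6.12 in Control hearts at 0 hpa. The median deviation of all 45 members was 0.35 on that array. On Control 7 dpa replicate 2 it was 0.46, and that of the epidermis list was 2.35. Epicardium and fibroblast markers had a summed intensity of 4429 and 4191 in TCDD hearts and 4891 and 5612 in Control hearts at 7 dpa, against 455 to 681 at 0 hpa. The part of epidermis, epicardium or fibroblasts in the members' rises was not tested.

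**Figure D5:**
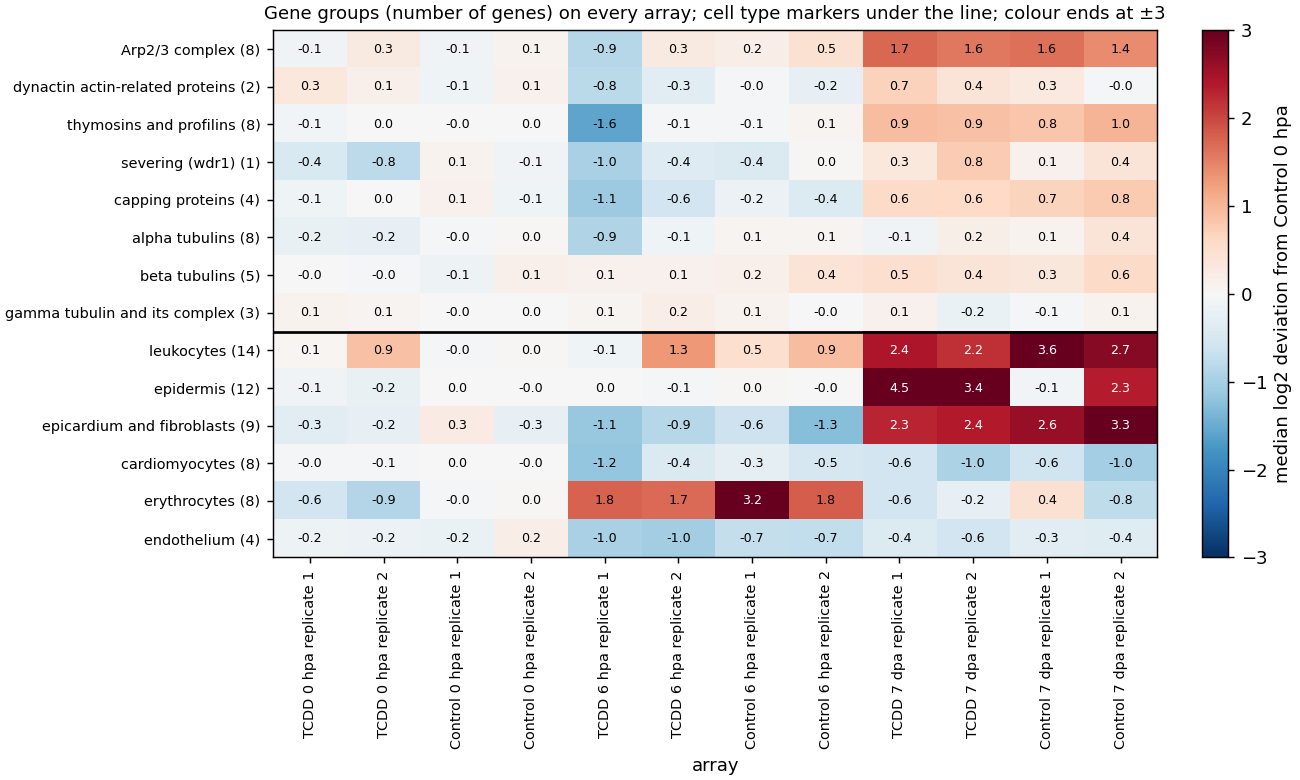
Median log2 deviation from the Control 0 hpa mean (colour and printed value) of each role group and, under the line, of 6 cell type marker lists (y axis) on every array (x axis). The Arp2/3 row is raised on all 4 arrays at 7 dpa, as are the leukocyte and the epicardium and fibroblast rows, while the epidermis row is raised on 3 of them.

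The genes that supply or steer these proteins were examined as lists. At 7 dpa 7.48% of all probe sets were called in the mean of both treatments. Of the actins, actb1, a cytoplasmic beta actin, rose by 1.58 at 7 dpa in the mean (adjusted p = 0.0101), the cardiac actin actc1a had a difference of -0.51 and fell (adjusted p = 0.0436), and the other 4 of 6 measured were not called. On the arrays actb1 read 11.41 and 11.19 in TCDD hearts and 11.36 and 11.18 in Control hearts at 7 dpa, against 9.43 and 9.77 in TCDD hearts and 9.67 and 9.98 in Control hearts at 0 hpa. All 4 arrays at 7 dpa lay above the 0 hpa arrays.

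Filament turnover had more calls than the other lists of the actin and tubulin pathways given here. Of 15 severing and turnover partners measured, from 29 listed, 8 rose at 7 dpa and 0 fell, with a median of 0.93. Over all probe sets 4.73% rose. The lists differ in size, so their counts are not a ranking of pathways. The largest were coro1a, a coronin of leukocytes, by 2.79 (adjusted p = 0.018), scinlb, a relative of gelsolin, by 2.27 (adjusted p = 0.00116), and gmfg and gmfb, of the family that removes Arp2/3 branches, by 2.16 and 2.11 (adjusted p = 0.0047 and 2.45e-05). Coro1a is also 1 of the leukocyte markers.

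Where 4.73% of all probe sets rose at 7 dpa, 5 of 17 crosslinkers and adapters measured, from 36 listed, rose and 0 fell. They were tagln, a smooth muscle actin binder, by 2.95 (adjusted p = 0.00122), the leukocyte plastin lcp1 by 2.19 (adjusted p = 0.0205), the tropomyosin tpm3 by 1.57 (adjusted p = 0.00804), the alpha actinin actn1 by 1.53 (adjusted p = 0.000598) and the bundling protein fscn1a. Lcp1 is a leukocyte marker too, and tagln also stands in the smooth muscle list.

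The lists of Arp2/3 activators and of formins and Ena/VASP were also only partly measured, with 11 of 25 and 3 of 20 genes. Of 11 Arp2/3 activators 1 was called: wasb, of the family of the human blood cell activator WASP, rose by 1.39 (adjusted p = 0.0477). Of 3 formin and Ena/VASP genes 0 were called by limma (2 had an unadjusted p under 0.05). Of 2 genes of SRF and its cofactors, which drive transcription of actin genes, 0 were called (0 at an unadjusted p under 0.05). Over all probe sets 7.48% were called at 7 dpa, and 19.9% had an unadjusted p under 0.05. With so few genes, the counts called are near that background and do not show a lack of response.

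Each list of partners of tubulin had 1 call at 7 dpa, where 7.48% of all probe sets were called. The shares called were near that background. Of 17 genes of the chaperonin and prefoldin that fold actin and tubulin, pfdn2 rose by 0.89 (adjusted p = 0.0295) and the list's median was 0.19. Of 14 microtubule regulators tacc2, a centrosome protein, was the 1 called, with a difference of -1.28 (adjusted p = 0.0179), and the median was 0.05. Of 12 dynactin and dynein genes pafah1b1a (Lis1, a regulator of dynein) was the 1 called, with a difference of -2.62 (adjusted p = 0.0388), and the median was 0.16. The median over all probe sets was -0.02. Between TCDD and Control hearts 0 of the 97 genes of these lists were called at 0 hpa, 6 hpa or 7 dpa by limma, with 3, 10 and 9 at an unadjusted p under 0.05. Of all probe sets 0.0258%, 0.0129% and 0.116% were called, so 0 of 97 is near the background. An unadjusted p under 0.05 was held by 1.45%, 2.72% and 3.97% of all probe sets.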

How the data were processed

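RNA from the ventricle apex, 10 hearts pooled per array, was hybridised to 12 Affymetrix zebrafish arrays, 2 in each of 6 groups taken from the sample labels. The authors deposited an intensity for each probe set on each array, on a linear scale by the range of the values. Per the submitters' processing notes these come from RMA, with no software or version stated there. RMA is meant to equalise the arrays, and it compresses low values, so that differences of dim probe sets are understated. The deposited arrays still differed, with medians of 3.26 to 3.53 on the log2 scale. Their 99th percentile was 9.88 on TCDD 6 hpa replicate 1, against 10.41 to 10.64 on the other arrays. The number of arrays limits the precision.

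Here log2 was taken of these values, 115 control probe sets were left out, and 15502 were fitted with limma 3.58.1 in R 4.3.3 (lmFit and eBayes, 6 group means, all 12 arrays, 6 residual and 2.87 prior degrees of freedom), with Benjamini-Hochberg adjustment over all probe sets in each of 11 comparisons. Standard errors and 95% intervals come from that fit. It was also run on simulated data with independent noise and no array that stood apart, which does not check these intervals on the real arrays. Probe sets were named from the platform annotation, updated through RefSeq gene IDs: 10795 had 1 symbol, 135 several and 4572 none, and only the first kind was used. The authors' deposited comparison tables were not used. No sequence is printed, since none was at hand for these genes.

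Members and gene lists were chosen with earlier results of these data known, and 1 gene list is not reported here. Genes named with values were those called in any comparison (at most 8 rises and 8 falls each), the gene with the highest mean signal in each role, for a role with no call its 2 smallest p-values, and up to 4 called genes per list. The other members given with values were chosen after their values were seen. Alternatives were quantile normalization, median centring, a filter that drops the dimmest 25% of probe sets, trend and robust settings of eBayes, a block for the replicate number, the members without the shared letters, any probe set of a gene in place of the one with the highest mean, and leaving out each array.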

Additional observations from a re-analysis of the deposited data

How the results depend on the processing

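Each count of called members was recomputed under 7 other analyses and without each of the 12 arrays. After quantile normalization 8 members were called at 7 dpa in Control hearts and 10 in TCDD hearts, against 5 and 6 in the deposited scaling, and after median centring 0 at 6 hpa in the mean of both treatments, against 3. The other counts stayed within 1.5 times under these settings, with 11 to 19 members called at 7 dpa in the mean. Leaving out 1 array at a time gave 1 to 12 calls in Control hearts and 2 to 14 in TCDD hearts at 7 dpa, 8 to 22 in the mean at 7 dpa and 0 to 14 at 6 hpa, 0 to 1 in Control hearts and 0 to 16 in TCDD hearts at 6 hpa, 0 to 12 for TCDD against Control at 6 hpa, 0 to 4 for the change of the 6 hpa response, and 0 to 0 for TCDD against Control at 0 hpa and 7 dpa and for the change of the 7 dpa response. The labels do not say that a replicate number marks a shared batch. Over 15 pairs of groups the correlation of the differences between replicates ran between -0.378 and 0.563 and was above 0.1 in 8. Between TCDD and Control hearts of the same time it was 0.476 at 0 hpa, -0.135 at 6 hpa and 0.563 at 7 dpa. Replicate 1 had the higher acta1 difference between the 3′ and 5′ ends in all 6 groups. In the main fit the numbers were not taken as pairs. Whether arrays of the same replicate number share a technical part was not tested. With the replicate number as a block 6 members were called at 7 dpa in Control hearts, 6 in TCDD hearts, 14 in the mean, and 3 at 6 hpa in the mean. The block ended the call of capza1a (adjusted p = 0.0572). None of the 29 called differences of single genes reversed its sign under any setting. Median centring ended 8 of the 29 calls and trend with robust settings 3, while quantile normalization and the filter on dim probe sets ended 0. The cause of these changes was not tested. With 2 arrays a group, a 2-group difference had a median SE of 0.243 on the log2 scale.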
